A study of Mus musculus with 57 samples.

Results

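The 42 genes described here act at defined points of the cell division cycle, and they were followed through all 19 conditions of a bulk RNA-seq study of differentiating mouse embryonic stem cells (ESCs). The rule that chose them names genes by their established roles and uses no measured value, although earlier results of these data were known when it was written. They were found in the gene table by the symbols of the GENCODE M21 annotation. They make up 42 of its 55450 gene lines and fall into 15 replication genes, 5 cyclins of G1, 18 mitotic genes and 4 inhibitors of cyclin-dependent kinases (Cdk inhibitors). Of the 42, Gins2 had no count in any of the 57 libraries, and the other 41 had counts and passed the filter on low counts in every comparison.

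The cells came from 1 clone of a reporter line, Sox1-EGFP/FoxA2mCherry, in which EGFP replaces one allele of the neuroectoderm gene Sox1 and mCherry reports FoxA2, an endoderm factor. In the sorted arm, undifferentiated cells in SerumLIF (D0, sorted as Sox1-FoxA2-) were compared with cells kept in N2B27 medium with 1 uM retinoic acid (RA) for 2, 4 or 6 days (D2, D4, D6) and sorted into Sox1-FoxA2-, Sox1+FoxA2-, Sox1-FoxA2+ and Sox1+FoxA2+. In the progeny arm, cells of every gate but Sox1-FoxA2- were sorted at D2, replated in serum basal medium without LIF, again with 1 uM RA, and harvested 2 or 4 days later (D4, D6) without a further sort. Each of the 13 sorted and 6 progeny conditions had 3 libraries. A progeny label therefore names the gate of origin, and replating, the medium and the missing second sort cannot be told apart in any comparison of progeny with sorted cells. The libraries of a condition are described by the study as biological replicates, all of them from the same clone, and p-values measure the spread between these libraries.

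A dividing cell licenses its DNA in G1 by loading the Mcm2 to Mcm7 helicase with the help of Cdc6, fires it in S phase with Cdc45 and GINS, and copies it with Pcna as the sliding clamp. D-type cyclins (Ccnd1, Ccnd2, Ccnd3) open the way out of G1, and E-type cyclins (Ccne1, Ccne2) drive entry into S phase. Cyclins A and B with Cdk1 then start mitosis, which the Aurora and Polo kinases, kinesins, kinetochore proteins and the anaphase-promoting complex carry through. The inhibitors p21 (Cdkn1a), p27 (Cdkn1b), p16 (Cdkn2a) and p15 (Cdkn2b) slow or stop the cycle, and Cdkn2a also gives p19ARF, which is not a Cdk inhibitor. Mouse ESCs are known for a short G1 phase, high cyclin E and low levels of these inhibitors, and G1 lengthens as they differentiate.

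Replication and mitotic genes also differ in the short promoter sequences they are known for. E2F factors act on many genes of S phase through letters such as TTTCCCGC, TTTGGCGC, TTTGCCGC and TTTCGCGC, while mitotic genes are known for the CHR element (TTTGAA) and for CCAAT boxes. These letters were searched on both strands in RefSeq promoter windows of 300 bases (GRCm38.p6, 250 bases before to 50 after the start of a gene), which 34 of the 42 genes had. An E2F sequence was present in 5 of 13 replication genes, 1 of 15 mitotic genes and 1 of 4 Cdk inhibitors, against 2.605% of all 27025 genes with a window. TTTGAA was present in 11 of 15 mitotic genes and 3 of 13 replication genes, against 20.2% of all genes. CCAAT was present in 14 of 15 mitotic genes and 10 of 13 replication genes, against 41.1% of all genes. A match describes letters in a window and is not shown to be a bound site.

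The windows of 2 replication and 2 mitotic genes whose levels are described further on are printed 5′ to 3′ on the strand of the gene, with every match to these letters, or to their reverse complement, in capitals. Mcm5 (chr8:75109259-75109558, plus strand) holds 2 E2F sequences that share letters, beside CCAAT boxes, and Cdc6 (chr11:98907901-98908200, plus strand) holds 1 E2F sequence. Mki67 (chr7:135716330-135716629, minus strand) and Top2a (chr11:99024140-99024439, minus strand) each hold 2 CHR elements and several CCAAT boxes, and no E2F sequence.
Mcm5: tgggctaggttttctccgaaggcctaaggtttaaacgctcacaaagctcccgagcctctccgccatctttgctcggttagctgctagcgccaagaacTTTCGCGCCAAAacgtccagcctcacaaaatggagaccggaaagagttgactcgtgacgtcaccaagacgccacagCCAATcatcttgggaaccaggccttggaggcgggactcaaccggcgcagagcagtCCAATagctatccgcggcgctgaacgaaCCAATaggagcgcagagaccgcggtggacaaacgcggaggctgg
Cdc6: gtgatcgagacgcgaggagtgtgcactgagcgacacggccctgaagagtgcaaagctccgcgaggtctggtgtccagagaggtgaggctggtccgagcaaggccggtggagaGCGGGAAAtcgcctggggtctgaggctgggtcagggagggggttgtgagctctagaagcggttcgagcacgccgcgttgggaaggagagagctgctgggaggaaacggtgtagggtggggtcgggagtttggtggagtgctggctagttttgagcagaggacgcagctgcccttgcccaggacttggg
Mki67: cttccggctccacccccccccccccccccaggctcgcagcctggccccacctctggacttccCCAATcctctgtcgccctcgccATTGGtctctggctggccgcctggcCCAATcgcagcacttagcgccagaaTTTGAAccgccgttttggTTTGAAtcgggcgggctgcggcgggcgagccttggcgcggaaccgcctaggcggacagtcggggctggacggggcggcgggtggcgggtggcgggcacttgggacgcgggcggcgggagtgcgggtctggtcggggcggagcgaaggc
Top2a: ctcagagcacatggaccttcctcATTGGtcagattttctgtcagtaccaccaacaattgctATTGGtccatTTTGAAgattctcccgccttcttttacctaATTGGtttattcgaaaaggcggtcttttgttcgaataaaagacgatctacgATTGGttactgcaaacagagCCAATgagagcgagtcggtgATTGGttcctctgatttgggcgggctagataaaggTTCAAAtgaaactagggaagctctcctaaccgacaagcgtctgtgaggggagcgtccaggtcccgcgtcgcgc

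Total counts per library ran from 10170632 to 81845651 (median 36694379), and 14458 to 27832 genes had a count. Levels below are normalized counts, the deposited counts divided by DESeq2 size factors, and changes are log2 fold changes from edgeR's quasi-likelihood test. That test reports no standard error (SE). The SE given here is the absolute log2 fold change divided by the square root of the F statistic of the test. A gene was called where its p, adjusted by Benjamini-Hochberg over all genes tested in that comparison, was under 0.05. Foxa2, the gene behind a gate, had 1067 to 3241 normalized counts in the FoxA2+ gates of D2 and 0 to 324 in the FoxA2- gates. In the libraries labelled D6 Sox1+FoxA2+ it had 0, 728 and 77, a range that includes the Sox1+FoxA2- libraries of that day at 131, 124 and 20. The summed level of 7 endoderm markers, however, was 54331 to 422034 in D6 Sox1+FoxA2+ and 5455 to 7185 in D6 Sox1+FoxA2-, without overlap. At D4 Foxa2 had 214, 528 and 1091 in Sox1+FoxA2+ and 3.09, 55.8 and 251 in Sox1+FoxA2-, which overlapped. Sox1 could not be checked, since it had no count in any library, as was the case for Gins2. Both lie wholly inside the spans of other genes, and 1.78% of the Sox1 exon bases are shared with another gene. The neuron genes Tubb3 and Neurod1, which also lie wholly inside other genes, had no count in any library either. A missing count of such a gene is therefore not shown to mean that its RNA was absent. The paper proposes that Sox1 mRNA may have been below detection, as EGFP replaces an allele of it. The reason for the missing counts was not tested. Fen1, with 67.7% of its span inside other genes, was the least abundant counted member per kilobase and its level is uncertain. Ccne2 (41.9%), Ube2c (18.6%) and Ccnd1 (17.7%) lie partly inside other genes as well, and the strand setting of the counting is not given in the sources used here. The counts of Cdkn2a sum its p16 and p19ARF transcripts.

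Per kilobase of exon, over all 57 libraries, Top2a, the topoisomerase that untangles chromosomes before mitosis, had the highest mean level of the members at 4019 normalized counts, followed by the proliferation antigen Mki67 at 2467. The same pooled mean was 240 for Cdkn1b to 758 for Cdkn2a among the Cdk inhibitors and 195 for Ccnd1 to 428 for Ccnd2 among the D-type cyclins. It hides large differences between conditions, which are given below gene by gene. Mki67 also varied least among the counted members between libraries of a condition, with a median SD of 0.20 on the log2 scale. Fen1, Cdkn2b and Ccnd1 varied most, with median SDs of 0.94, 0.90 and 0.66.

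Averaged over the 14 counted replication genes, the log2 level lay below the D0 mean in every one of the other 18 conditions, from -0.49 ± 0.43 (SD, n = 3) in D4 Sox1+FoxA2- to -1.47 ± 0.40 in the D6 progeny of Sox1+FoxA2+ cells. The 18 mitotic genes stayed closer to D0 at D2, where the means of the 4 gates ran from -0.22 to 0.08. Their lowest means were in the progeny, at -1.22 ± 0.43 for D6 Sox1+FoxA2- origin and -1.59 ± 0.48 for D6 Sox1+FoxA2+ origin. The D6 progeny of Sox1-FoxA2+ cells lay above both, at -0.50 ± 0.06. These means describe the genes as groups and were not tested. In bulk samples, fewer cells in a phase and less RNA of a gene per cell cannot be told apart.

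**Figure D1:**
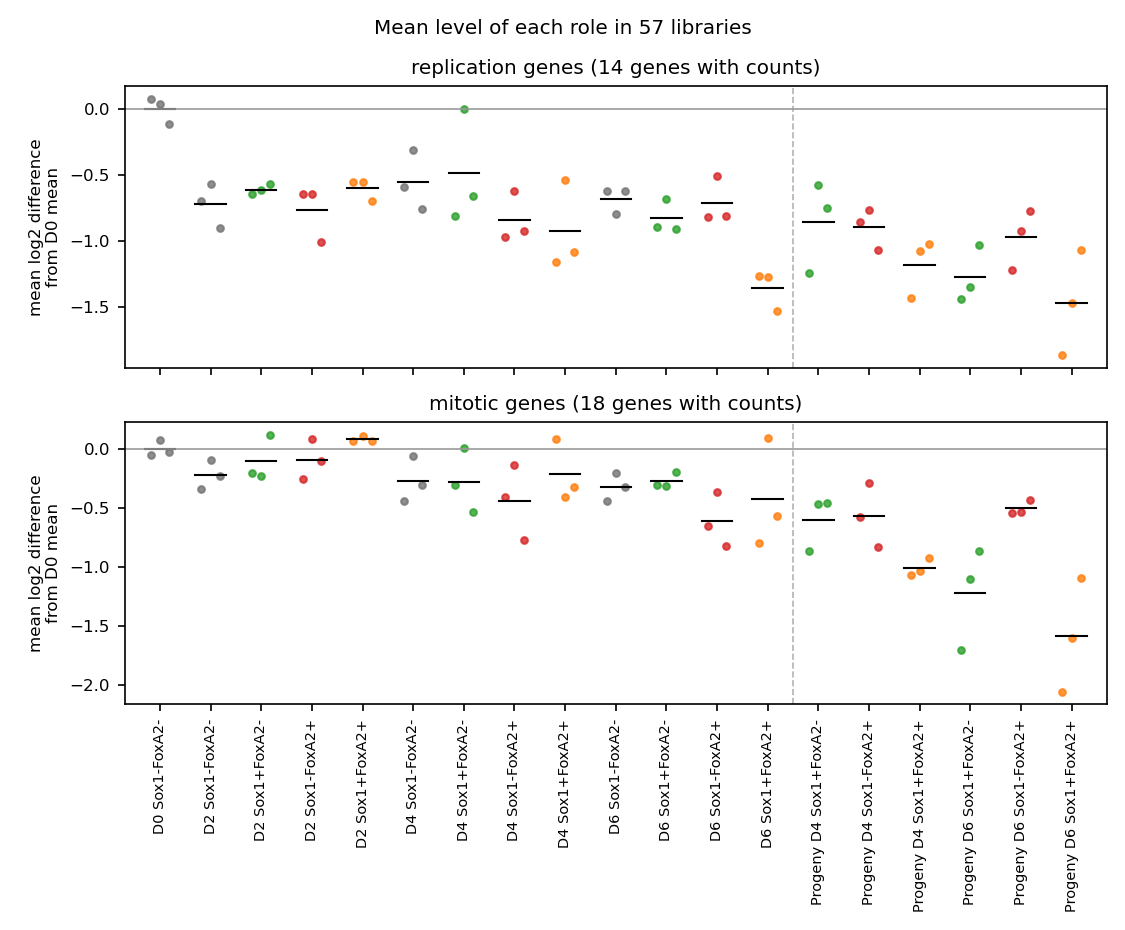
Mean log2 level of the replication genes (upper panel) and the mitotic genes (lower panel) relative to the mean of the D0 libraries, for each of the 19 conditions. Points are libraries, short lines are means of 3 libraries, colours give the gate (grey Sox1-FoxA2-, green Sox1+FoxA2-, red Sox1-FoxA2+, orange Sox1+FoxA2+), and the dashed line separates sorted cells from progeny. The means of the replication genes lie below D0 in every other condition, and those of the mitotic genes are lowest in the D6 progeny of Sox1+FoxA2- and Sox1+FoxA2+ cells.

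The first comparison asked how these genes differed between cells in SerumLIF and cells after 2 days in N2B27 with RA. The 4 gates of D2 were given equal weight against the 3 D0 libraries that they share. Serum, LIF, basal medium, RA and time changed together here and cannot be told apart. At D2, 7 of 14 counted replication genes and Ccne1 were lower, Ccnd1 had the largest fall of the called members, and Mki67 and Cdkn2a were higher. Of the 41 members, 10 fell and 2 rose, while 4.11% of all 21037 genes tested were called lower and 3.03% higher. The median log2 fold change was -0.62 over the replication genes, none of which had a positive value, -0.74 over the G1 cyclins, -0.14 over the mitotic genes and 1.98 over the Cdk inhibitors, against 0.07 over all genes.

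Among the replication genes 7 of 14 fell, including 4 subunits of the Mcm helicase. Mcm2 had 16192, 15014 and 14986 normalized counts at D0 and 6106 to 11482 (median 8244) over the 12 libraries of D2. The 2 ranges did not overlap, and the log2 fold change was -0.92 ± 0.16 (SE, adjusted p = 0.0012, edgeR). Mcm3 (-0.58, adjusted p = 0.018) and Mcm4 (-0.65, 0.022) fell without overlap as well, and Mcm5 fell by 0.72 (adjusted p = 0.027) with overlap, since 1 D0 library with 11185 lay within the D2 range of 5373 to 12474. Mcm6 had a log2 fold change of -0.55 that was not called (adjusted p = 0.053).

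Pcna, the sliding clamp of the replicative polymerases, had 5711, 5744 and 5556 normalized counts at D0 and 2264 to 4238 (median 2690) at D2. Every D2 library lay below every D0 library, and the log2 fold change was -0.99 ± 0.19 (adjusted p = 0.0028). Slbp, which binds histone mRNA and accumulates for S phase, went from 3814, 3645 and 4211 to 1450 to 3322 (median 2205), again without overlap (-0.73 ± 0.20, adjusted p = 0.034). Rrm2, the ribonucleotide reductase subunit that supplies deoxynucleotides in S phase, was called lower at -0.72 (adjusted p = 0.046), but its lowest D0 library, at 4386, lay within the D2 range of 2305 to 5057.

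Ccne1, the cyclin E of ESCs, had 8894, 7876 and 8157 normalized counts at D0 and 2610 to 5876 (median 4046) at D2. The groups did not overlap, and the log2 fold change was -1.03 ± 0.19 (adjusted p = 0.0022). Ccnd1 had 2954, 2601 and 2675 at D0 and only 157 to 1248 (median 822) at D2, so that every D2 library had less than any D0 library (-1.86 ± 0.41, adjusted p = 0.0085). Ccnd2 had a log2 fold change of 0.77 ± 0.38 that was not called (adjusted p = 0.25).

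The mitotic genes did not move together. Mki67 had 14566, 13611 and 13560 normalized counts at D0 and 24178 to 36104 (median 29100) at D2, which placed all 12 D2 libraries above D0 with a log2 fold change of 1.14 ± 0.16 (adjusted p = 3.0e-04). In each gate alone it was called higher too, by 0.94 to 1.28. Bub1b, a kinase of the spindle checkpoint, fell from 11465, 11662 and 12708 to 5061 to 11357 (median 7367) without overlap (-0.64 ± 0.18, adjusted p = 0.035). The other 16 mitotic genes were not called, among them Ccnb1, the cyclin B of mitotic entry, at -0.07 (adjusted p = 0.90) and Top2a at -0.19 ± 0.17 (adjusted p = 0.57), whose D2 libraries spread from 35839 to 74385 around D0 values of 43530, 71027 and 47325.

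Of the genes grouped as Cdk inhibitors, Cdkn2a was called at D2, and its counts do not tell its p16 and p19ARF transcripts apart. It had 152, 65.9 and 33.1 normalized counts at D0 and 157 to 1979 (median 505) at D2, all above D0 (log2 fold change 3.01 ± 0.79, adjusted p = 0.023). By single gates it was called in Sox1+FoxA2- (3.50) and Sox1+FoxA2+ (3.89) and not in Sox1-FoxA2- (2.18) or Sox1-FoxA2+ (2.46), and the difference between gates was not tested. The other 3 inhibitors had positive values that were not called: Cdkn1a at 0.95 ± 0.46 (adjusted p = 0.24), Cdkn1b at 0.72 ± 0.37 (0.28) and Cdkn2b at 3.12 ± 2.13 (0.43), which was at 0 in 2 of 3 D0 libraries.

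**Figure D2:**
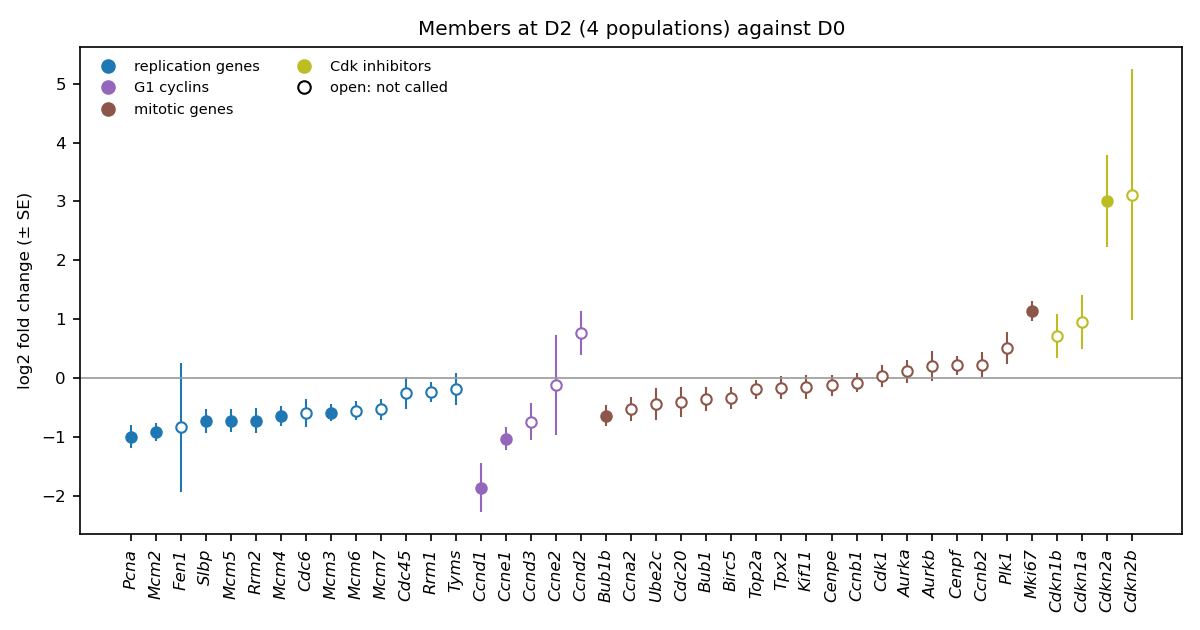
Log2 fold change of each counted member at D2 (12 libraries, 4 gates) against D0 (3 libraries), with bars of ± 1 SE. Colours give the role (blue replication, purple G1 cyclins, brown mitotic, olive Cdk inhibitors), filled points are called genes and open points are not. The vertical axis is the log2 fold change and the genes stand along the horizontal axis. The replication genes lie below 0, and Mki67 and Cdkn2a are the filled points above it.

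Of other genes of the same processes, 4 of 28 S-phase genes tested fell at D2 and none rose: Ung (-1.50), which removes uracil from DNA, the chromatin remodeller Hells (-1.03), the replication initiation factor Mcm10 (-0.85) and Dbf4 (-0.71), the partner of the Cdc7 kinase. Their median was -0.47. Of 30 other mitotic genes, the regulator Foxm1 rose by 0.88 and Mybl2, a transcription factor of late cycle genes, fell by 2.18. The retinoblastoma relative Rbl1 rose by 1.28 and was the 1 gene called of 12 other regulators of G1 and arrest, and none of 10 p53 targets was called. Pluripotent markers moved with these genes: 5 of 6 fell, and their summed level was 24409 to 72706 normalized counts at D0 and 2678 to 32756 over the D2 libraries, with none of the 6 at 0 throughout. Their part in the result was not tested. Without replicate 1 of every group 1 member was called, and without replicate 2 there were 3, while without D0 replicate 1 or 2 alone there were 5 and 7. On counts simulated for this comparison, 14.6% of calls were false.

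Between D2 and D6 of sorting the question was whether these genes went on changing within a gate, and no member was called in any of the 4 gates. In Sox1-FoxA2-, 0.107% of all genes were called, and the mitotic median of -0.13 lay near the all-gene median of 0.06. In Sox1+FoxA2- no gene of 22328 was called by edgeR (0%), although 2528 had an unadjusted p under 0.05 and DESeq2's Wald test called 1291. There the replication and mitotic medians were -0.35 and -0.31 against 0.24 over all genes.

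In Sox1-FoxA2+, where 1.98% of all genes were called, the replication median was -0.36 and the mitotic median -0.57, with 17 of 18 mitotic values below 0, against 0.01 over all genes. Ccnb1 was at -1.05 (adjusted p = 0.136), Ccnd2 at 1.26 ± 0.40 (0.146) and Ccnd1 at -3.17 ± 1.30 (0.29). By the Wald test of DESeq2 7 members were called here, with Ccnb1, Ccnb2, Mcm3, Mcm7 and Ube2c lower and Ccnd2 and Ccnd3 higher. In the gate labelled Sox1+FoxA2+, where 0.0887% of genes were called, all 14 replication values and all 18 mitotic values were below 0 (medians -0.82 and -0.74), while the median over all genes was 0.44. The smallest adjusted p among the members was 0.229. With DESeq2 size factors the all-gene median there was 0.65, and in Sox1+FoxA2- it was 0.35.

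Gates of the same day were compared to ask whether neuroectoderm-marked and endoderm-marked cells differed in these genes. Again no member was called in sorted cells by the test that does not use the replicate numbers. At D4, Sox1-FoxA2+ was set against Sox1+FoxA2- (0.227% of genes called), and the largest differences were those of D-type cyclins. Ccnd2 had 2317, 2557 and 1580 normalized counts in Sox1-FoxA2+ and 6445, 33921 and 1973 in Sox1+FoxA2-, where replicate 2 stood far above the other two (-2.73 ± 0.84, adjusted p = 0.413). The groups overlapped, and Ccnd1 was at -2.17 ± 0.85 (adjusted p = 0.83).

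At D6 the 3 pairs of gates share libraries. Sox1-FoxA2+ against Sox1+FoxA2- (1.09% of genes called) had Ccnd1 at 106, 308 and 0 normalized counts against 3009, 3577 and 466. The groups did not overlap, but the difference of -3.86 ± 1.20 was not called (adjusted p = 0.167). Same-numbered libraries of these gates varied together, and with the replicate number as a block Ccnd1 was called (-4.39, adjusted p = 0.0045).

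No member was called in the libraries labelled Sox1+FoxA2+ against Sox1+FoxA2- (0.0992% of genes called, smallest adjusted p among members 1) or against Sox1-FoxA2+ (0.0454%). Replicate 2 of that gate stood apart from the other 2 in several mitotic genes, with 49307 normalized counts of Mki67, 20398 of the spindle factor Tpx2 and 10006 of Ccnb1. That library also had the fewest genes with a count of all libraries, 14458, against 23286 and 24155 in replicates 1 and 3.

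**Figure D3:**
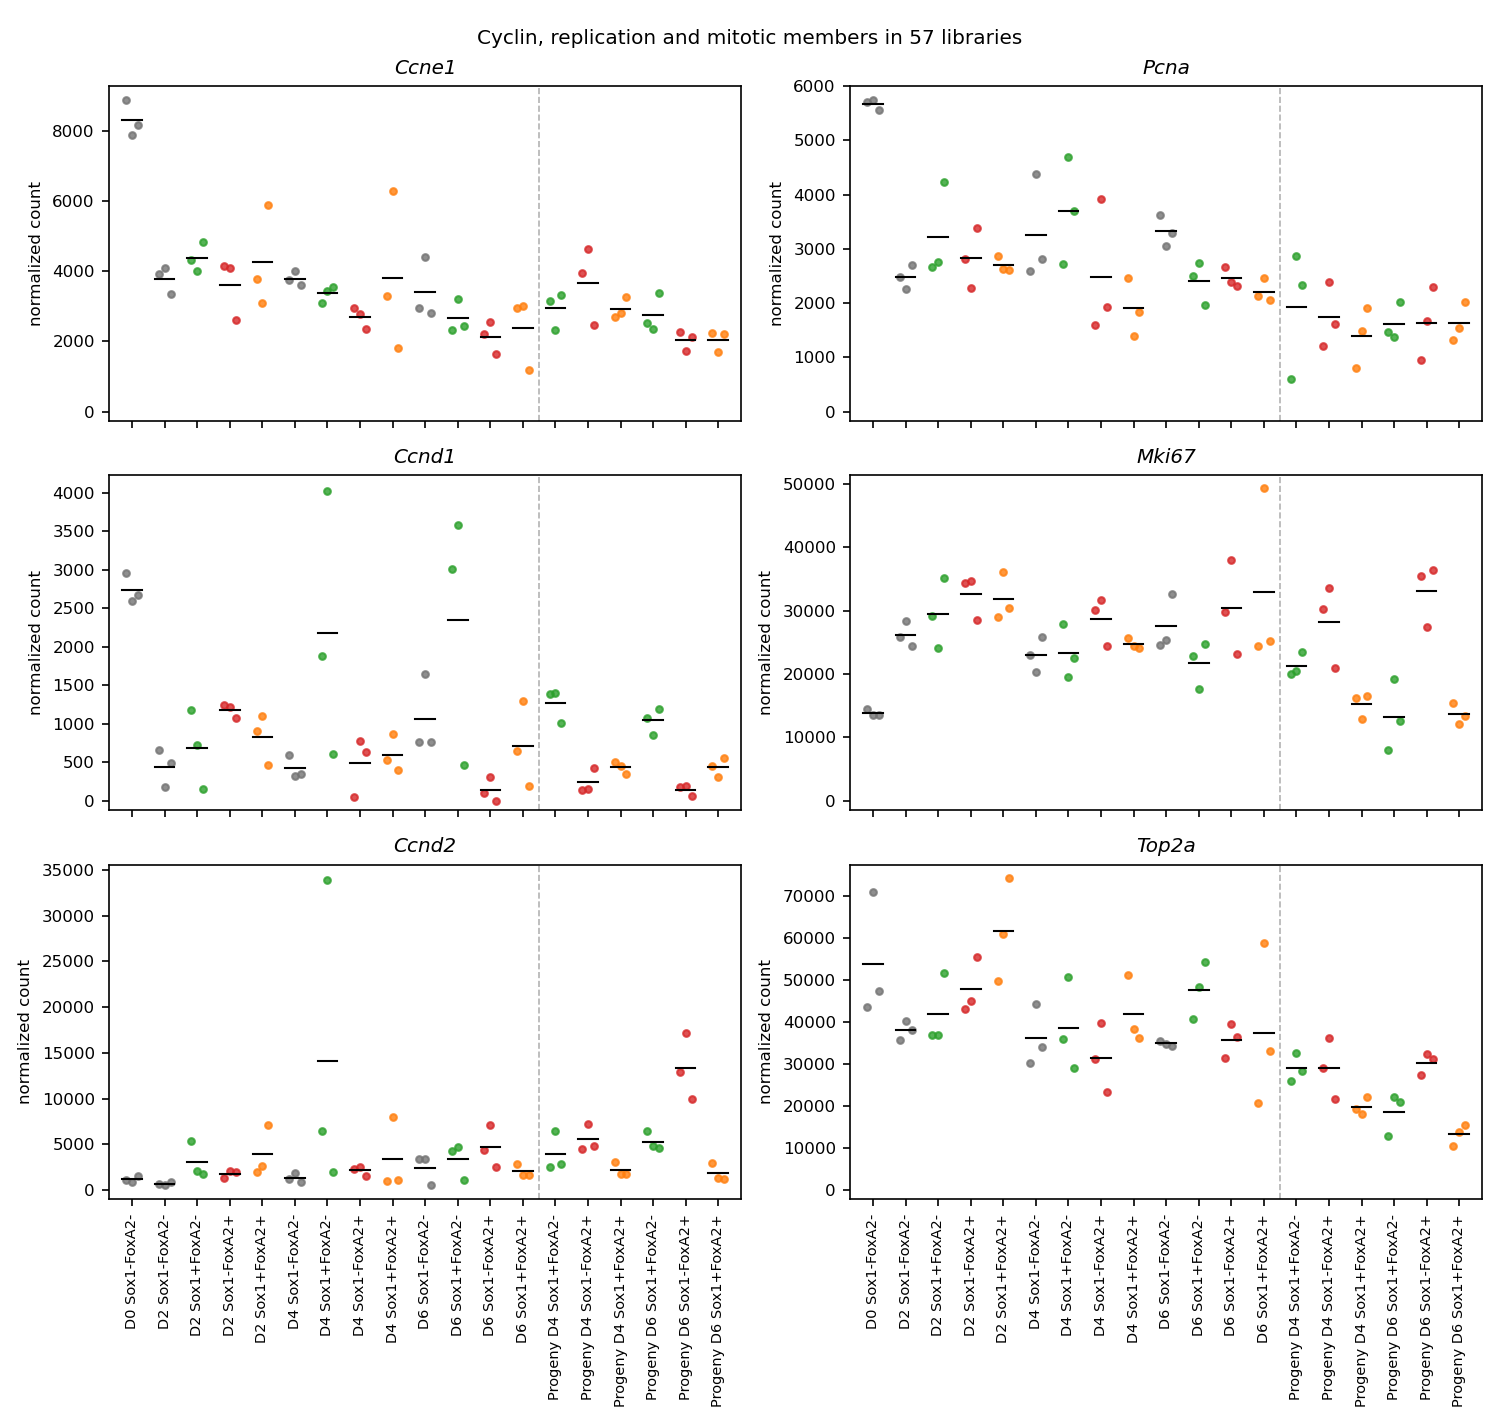
Normalized counts of Ccne1, Pcna, Ccnd1, Mki67, Ccnd2 and Top2a in the 19 conditions (linear vertical axes, conditions along the horizontal axis). Points are libraries, short lines are means of 3 libraries, colours give the gate (grey Sox1-FoxA2-, green Sox1+FoxA2-, red Sox1-FoxA2+, orange Sox1+FoxA2+), and the dashed line separates sorted cells from progeny. The means of Ccne1, Pcna and Ccnd1 are highest at D0, and Mki67 is higher in all D2 libraries than at D0.

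Among the progeny, members were called at both days. Progeny of Sox1-FoxA2+ cells were compared with progeny of Sox1+FoxA2- cells at each day. At D4, 1 member was called, while 1.39% of all genes were higher and 0.469% lower. Ccnd1 had 142, 158 and 433 normalized counts in Sox1-FoxA2+ progeny and 1389, 1404 and 1013 in Sox1+FoxA2- progeny, without overlap (-2.34 ± 0.46, adjusted p = 0.011). Progeny of Sox1+FoxA2+ cells had 505, 449 and 354, which overlapped the Sox1-FoxA2+ progeny and lay below the Sox1+FoxA2- progeny. Without Sox1-FoxA2+ replicate 2 no member was called. Same-numbered libraries paired here, and with the replicate block Cdc6 was called as well (1.28, adjusted p = 0.00475), from 4945, 5567 and 3434 in Sox1-FoxA2+ progeny and 1195, 2449 and 2447 in Sox1+FoxA2- progeny.

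At D6, 4 members were higher in Sox1-FoxA2+ progeny and 2 were lower, while 3.49% of all genes were higher and 3.28% lower. The higher ones were Cdc6, Ccnd2, Mki67 and Cenpe, and the lower ones Ccnd1 and Cdkn2b. Values of the 2 groups did not overlap for any of the 6, which describes the values behind the calls and is no further support. All 18 mitotic genes had positive values, with a median of 0.61, against medians of 0.18 for replication genes, -0.02 for G1 cyclins, -0.65 for Cdk inhibitors and -0.04 over all genes.

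Cdc6, the loader of the Mcm helicase, had 2851, 5212 and 6281 normalized counts in Sox1-FoxA2+ progeny and 1107, 1214 and 1912 in Sox1+FoxA2- progeny (1.72 ± 0.29, adjusted p = 0.0023). The 2 D-type cyclins went opposite ways. Ccnd1 had 175, 195 and 70.0 against 1078, 863 and 1196 (-2.85 ± 0.45, adjusted p = 0.0014), and Ccnd2 had 12881, 17172 and 9972 against 6490, 4793 and 4587 (1.30 ± 0.33, adjusted p = 0.031).

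Mki67 had 35507, 27463 and 36466 normalized counts in Sox1-FoxA2+ progeny and 8010, 19276 and 12629 in Sox1+FoxA2- progeny, where the libraries were widely spread (1.27 ± 0.29, adjusted p = 0.016). Cenpe, the kinetochore kinesin, had 19044, 17400 and 15531 against 5340, 10185 and 7095 (1.16 ± 0.26, adjusted p = 0.014). Replicate 1 of the Sox1+FoxA2- progeny was the lowest in both genes. The inhibitor Cdkn2b was lower in Sox1-FoxA2+ progeny, at 1198, 428 and 397 against 3109, 2176 and 1608 (-1.80 ± 0.41, adjusted p = 0.015). There were 3 members called when replicate 1 of the Sox1+FoxA2- progeny was left out, and 10 when that of the Sox1-FoxA2+ progeny was.

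**Figure D4:**
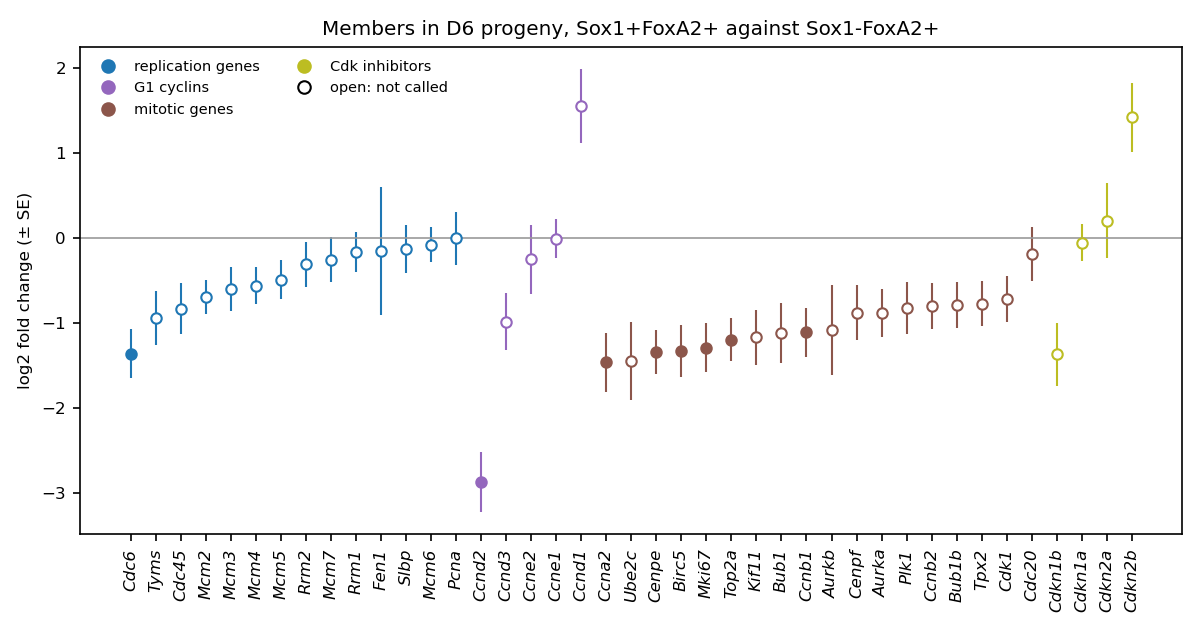
Log2 fold change of each counted member between D6 progeny of Sox1+FoxA2+ and of Sox1-FoxA2+ cells (3 libraries each), with bars of ± 1 SE. Colours give the role (blue replication, purple G1 cyclins, brown mitotic, olive Cdk inhibitors), filled points are called genes and open points are not. Genes stand along the horizontal axis. All 18 mitotic values lie below 0, no replication value lies above it, and the 8 filled points lie between -2.87 and -1.11.

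The D6 progeny of Sox1+FoxA2+ cells were then compared with those of both other origins, which share libraries with the comparison above. Against Sox1-FoxA2+ progeny, 8 members were lower and none higher, while 2.22% of all genes were lower and 2.25% higher. The 8 were Cdc6, Ccnd2 and the mitotic genes Ccna2, Ccnb1, Top2a, Mki67, Cenpe and Birc5. Their values did not overlap between the groups, which again describes the values behind the calls. The mitotic median was -1.10 and the replication median -0.40, against 0.09 over all genes.

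Ccnd2 had 3002, 1318 and 1247 normalized counts in Sox1+FoxA2+ progeny (-2.87 ± 0.35, adjusted p = 6.7e-04), and Cdc6 had 1900, 1834 and 1850 (-1.37 ± 0.29, adjusted p = 0.015). Among the mitotic genes Top2a had 10511, 13786 and 15595 in Sox1+FoxA2+ progeny and 27379, 32421 and 31127 in Sox1-FoxA2+ progeny (-1.20 ± 0.25, adjusted p = 0.015). Ccna2, the cyclin of S phase and G2, had 855, 1757 and 2611 against 3764, 5387 and 5214 (-1.46 ± 0.35, adjusted p = 0.028). In each of these genes the Sox1-FoxA2+ progeny formed the upper group.

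Ccnb1 had 1508, 1889 and 2866 normalized counts in Sox1+FoxA2+ progeny and 4722, 4350 and 4380 in Sox1-FoxA2+ progeny (-1.11 ± 0.29, adjusted p = 0.046). Birc5, survivin of the chromosomal passenger complex, had 1788, 1384 and 2511 against 3234, 5117 and 5967 (-1.34 ± 0.30, adjusted p = 0.023). Mki67 at 15391, 12079 and 13445 (-1.30, adjusted p = 0.022) and Cenpe at 5636, 7659 and 7413 (-1.35, adjusted p = 0.0097) lay within the range of the Sox1+FoxA2- progeny. Cdkn1b (-1.37, adjusted p = 0.051), Ccnd1 (1.55, 0.064) and Cdkn2b (1.42, 0.069) were not called.

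Same-numbered libraries of this pair also varied together, and with the replicate block 17 members were called, 16 lower and 1 higher. The block added Aurka (-0.92) and Aurkb (-1.41), the Aurora kinases, the checkpoint kinase Bub1 (-1.23), Ccnb2 (-0.84), the spindle kinesin Kif11 (-1.23), Ube2c (-1.71) of the anaphase-promoting pathway, Mcm2 (-0.71) and Cdkn1b (-1.36) on the lower side and Cdkn2b (1.62) on the higher. Leaving out replicate 1, 2 or 3 of the Sox1+FoxA2+ progeny gave 4, 2 and 14 called members. Leaving out replicate 1, 2 or 3 of the Sox1-FoxA2+ progeny gave 13, 3 and 3.

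Against Sox1+FoxA2- progeny, no member of the Sox1+FoxA2+ progeny was called (0.152% of genes called), with a mitotic median of -0.43 and a G1 cyclin median of -1.01 against 0.04. Ccnd2 was at -1.58 ± 0.34 (adjusted p = 0.116), and with the replicate block, since these libraries paired too, it was called (-1.64, adjusted p = 0.044). Without Sox1+FoxA2+ replicate 1, 1 member was called.

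Other genes of the cycle were called in the same D6 progeny comparisons. Of 30 other mitotic genes, the Sox1-FoxA2+ progeny had more Kif23 (1.06), Incenp (0.90) and Mybl2 (1.89) than those of Sox1+FoxA2- cells, with 27 of 30 values positive and a median of 0.60. Nusap1 (-1.32), Kif23 (-1.30) and Mybl2 (-1.69) were lower in Sox1+FoxA2+ than in Sox1-FoxA2+ progeny, as was the S-phase gene Mcm10 (-1.38). The G1 kinases Cdk4 (-1.03) and Cdk6 (-2.36) and the inhibitor Cdkn1c, p57 (-2.88), were lower in Sox1-FoxA2+ than in Sox1+FoxA2- progeny, and the antiproliferative gene Btg1 was higher (1.40). Lineage markers differed beside them: all 7 endoderm markers were higher and all 5 neuroectoderm markers lower in Sox1-FoxA2+ than in Sox1+FoxA2- progeny, and 4 of 6 mesenchyme and smooth muscle markers were lower. Against Sox1-FoxA2+ progeny, those of Sox1+FoxA2+ cells had all 7 endoderm markers lower and 4 of 5 neuroectoderm markers higher. None of the 6 mesenchyme and smooth muscle markers was called in that pair, but their summed level was 24474 to 33413 normalized counts in Sox1+FoxA2+ progeny and 5364 to 15769 in Sox1-FoxA2+ progeny, without overlap. The part of these markers in the cell cycle values was not tested.

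Progeny were set against sorted cells of the same day, with the 3 origins given equal weight, to ask how cells replated in serum medium compared with cells that stayed in N2B27 and RA. At D4 the 3 Cdk inhibitors Cdkn1a, Cdkn2a and Cdkn2b rose and no other member was called, while 3.49% of all genes were higher and 3.52% lower. Cdkn1a had 2454 to 4905 normalized counts (median 3024) in 9 progeny libraries and 181 to 2694 (median 1203) in 9 sorted libraries (1.26 ± 0.33, adjusted p = 0.021). Cdkn2a had 813 to 1482 (median 1268) against 246 to 1434 (median 632), a change of 1.00 ± 0.27 (adjusted p = 0.027). Ranges overlapped for both.

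Cdkn2b, p15, had 723 to 1613 normalized counts (median 1210) in D4 progeny and 0 to 797 (median 286) in sorted cells, with a small overlap (1.90 ± 0.58, adjusted p = 0.048). With DESeq2 size factors it was not called (1.89, adjusted p = 0.052). Cdkn1b was at -0.19 (adjusted p = 0.69). Mitotic genes had a median of -0.46 and replication genes of -0.17, against -0.21 over all genes. In single gates no member was called, and without replicate 1 of every group 1 member was.

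By D6 the 2 inhibitors Cdkn1a and Cdkn2b separated progeny from sorted cells completely, and some mitotic genes were lower in the mean over origins. Of the 41 members 3 rose and 5 fell, while 7.04% of all genes were higher and 6.95% lower. Cdkn1a had 4053 to 6501 normalized counts (median 4934) in progeny and 238 to 2424 (median 1280) in sorted cells, every progeny library above every sorted one (2.22 ± 0.25, adjusted p = 3.5e-06). Cdkn2b had 397 to 3109 (median 1743) against 0 to 345 (median 172), also without overlap (3.33 ± 0.70, adjusted p = 0.0023). Cdkn2b was not called in any single origin, nor without replicate 1 of every group.

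Cdkn2a, at 505 to 2324 normalized counts (median 1489) in D6 progeny and 181 to 2275 (median 793) in sorted cells, was not called (1.02 ± 0.37, adjusted p = 0.068), and Cdkn1b was at 0.03 ± 0.34 (adjusted p = 1.0). By origin, Cdkn1a was called in Sox1+FoxA2- (3.12, adjusted p = 2.6e-04) and in Sox1+FoxA2+ (2.04, 0.013) and not in Sox1-FoxA2+ (1.49, 0.21). The difference between the Sox1-FoxA2+ and Sox1+FoxA2- changes, tested as an interaction, was -1.63 ± 0.60 for Cdkn1a (adjusted p = 0.384). No member was called in that interaction (0.0196% of all genes called), and all 18 mitotic values were positive with a median of 0.85 against 0.39 over all genes.

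**Figure D5:**
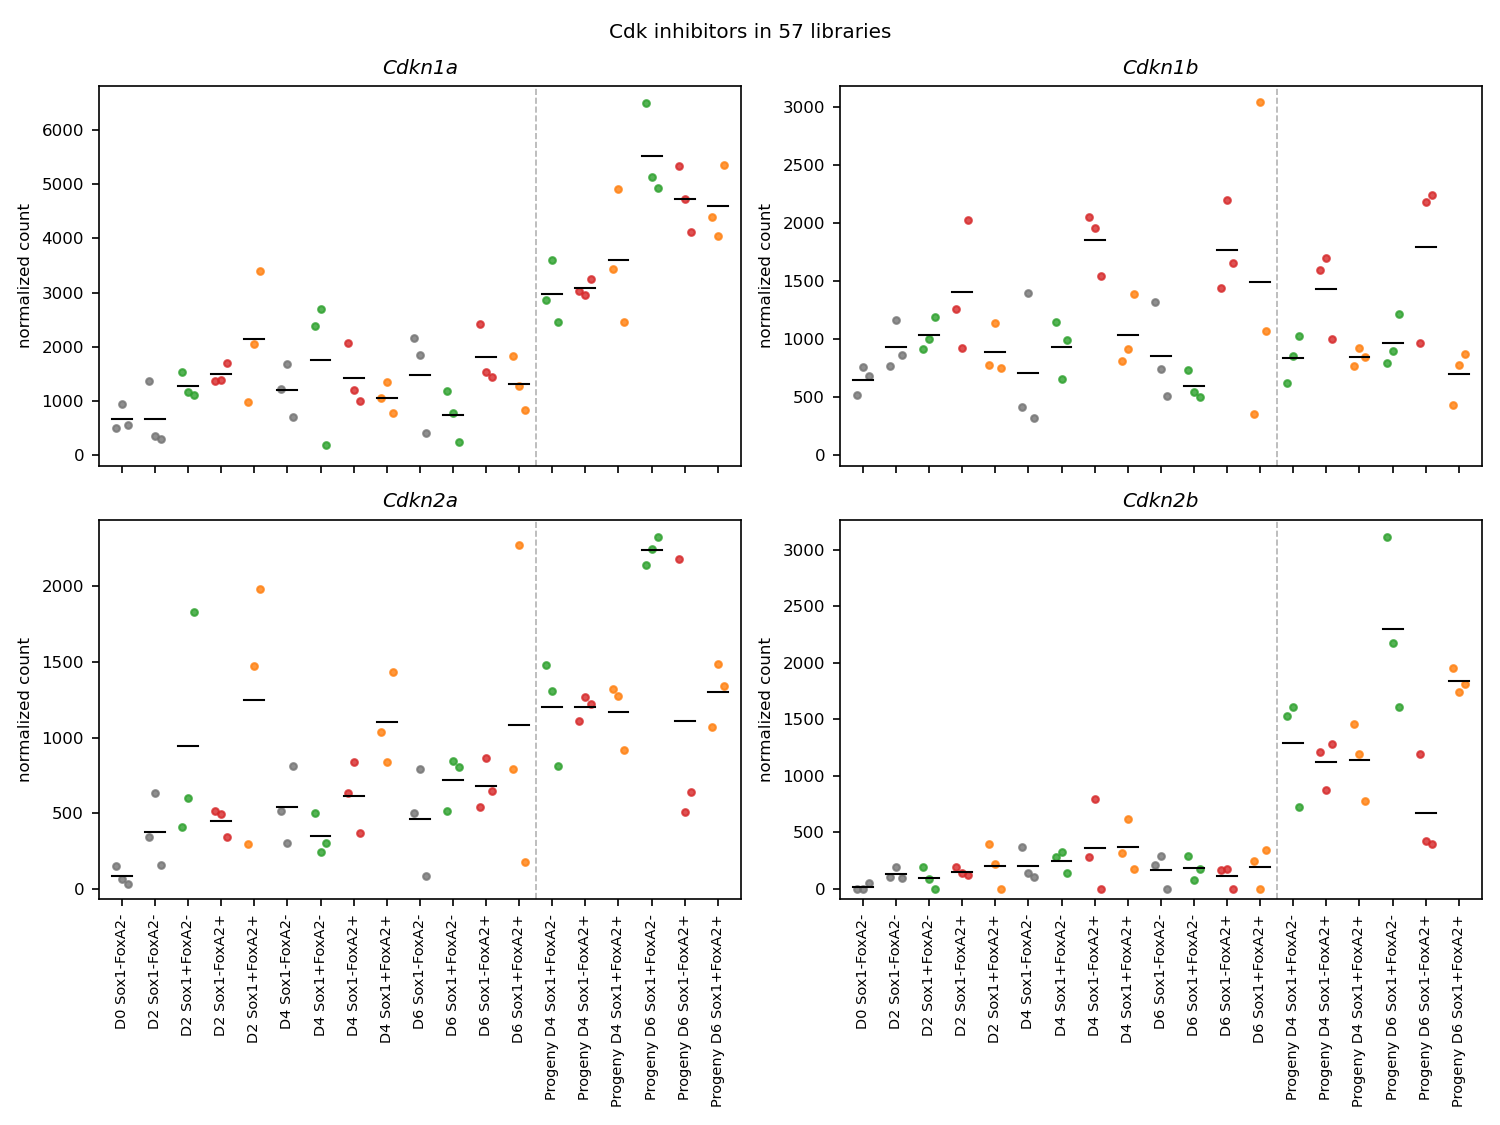
Normalized counts of Cdkn1a, Cdkn1b, Cdkn2a and Cdkn2b (linear vertical axes) in the 19 conditions. Points are libraries, short lines are means of 3 libraries, colours give the gate (grey Sox1-FoxA2-, green Sox1+FoxA2-, red Sox1-FoxA2+, orange Sox1+FoxA2+), and the dashed line separates sorted cells from progeny. At D6 the progeny lie above all sorted libraries of that day for Cdkn1a and Cdkn2b, and not for Cdkn1b.

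Of the mitotic genes, Cenpf, a kinetochore protein of G2 and mitosis, had 3577 to 13324 normalized counts (median 9429) in D6 progeny and 13396 to 27124 (median 17752) in sorted cells, without overlap (-1.0 ± 0.20, adjusted p = 0.0014). By origin Cenpf was called in Sox1+FoxA2+ and not in Sox1+FoxA2- or Sox1-FoxA2+. Top2a fell from 20806 to 58815 (median 39483) in sorted cells to 10511 to 32421 (median 20889) in progeny (-0.87 ± 0.19, adjusted p = 0.0037). Its ranges overlapped, and by origin it was at -1.32 in Sox1+FoxA2+ (adjusted p = 0.038), -1.15 in Sox1+FoxA2- (0.060) and -0.13 in Sox1-FoxA2+ (0.94).

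Birc5 (-0.76, adjusted p = 0.013) and the Aurora kinase gene Aurkb (-0.89, adjusted p = 0.048), both of the chromosomal passenger complex, were lower with overlapping ranges. Neither was called in any single origin or without replicate 1 or 2 of every group, nor was Aurkb without replicate 3. The helicase subunit Mcm6 was the replication gene called, at 4097 to 5755 (median 4714) in progeny and 5309 to 14446 (median 7068) in sorted cells (-0.62 ± 0.18, adjusted p = 0.026). Ccnd2 was higher in progeny, at 1247 to 17172 (median 4793) against 1087 to 7095 (median 2872), with wide overlap (0.84 ± 0.27, adjusted p = 0.037). Mki67 (-0.45, adjusted p = 0.12) and Ccnb1 (-0.58, 0.089) were not called.

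The mitotic median was -0.53, with 17 of 18 values below 0, the replication median -0.28, and the median over all genes -0.21. DESeq2 size factors moved that all-gene median to -0.34 and the calls from 3 higher and 5 lower to 2 higher and 12 lower, with Ccnd2 no longer called. Without replicate 1 of every group 3 members were called. By single origin 3 were called for Sox1+FoxA2+, 1 for Sox1+FoxA2- and 0 for Sox1-FoxA2+. Relative to D0, the mean log2 level of the mitotic genes at D6 was -0.50 in Sox1-FoxA2+ progeny and -0.62 in sorted Sox1-FoxA2+ cells. For Sox1+FoxA2- it was -1.22 in progeny and -0.27 in sorted cells, and for Sox1+FoxA2+ -1.59 and -0.43.

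Among other genes, Cdkn1c (1.81 at D4 and at D6) and the G1 kinase Cdk6 (1.48 and 2.51) rose in progeny at both days and Rbl1 fell (-1.06 and -1.03). Of 28 other S-phase genes, Pola1 of the primase complex (-0.61 and -0.76) fell at both days, with the nuclease Exo1 (-0.68) at D4 and Cdca7 (-1.44) and Uhrf1 (-0.68) at D6. Of 30 other mitotic genes, Nusap1 (-0.98 and -1.24) fell at both days. Mesenchyme and smooth muscle markers differed most between the arms. Their summed level was 16219 to 93201 normalized counts in D4 progeny and 500 to 5153 in sorted cells, with 4 of 6 markers called higher, and 5364 to 104190 against 627 to 13605 at D6, with 5 of 6 higher and none at 0 throughout. Their part in the values of the cell cycle genes was not tested.

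Within the progeny, D6 was compared with D4 of the same origin, and no member was called. In Sox1+FoxA2- progeny (0.025% of all genes called) all 18 mitotic and all 14 replication values were below 0, with medians of -0.68 and -0.55 against -0.01 over all genes. Cdkn1a was at 0.84 ± 0.26 (adjusted p = 0.485) there. In Sox1+FoxA2+ progeny (0.104%) all 18 mitotic values were below 0 as well, with a median of -0.50 against -0.01. In Sox1-FoxA2+ progeny (0.4%) the mitotic median was 0.03 against 0.04. The sorted cells of D4 were not compared with those of D2 or D6.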

How the data were processed

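RNA was measured by bulk RNA-seq (SMART-Seq Stranded kit) in 57 libraries. The authors deposited 1 table of raw counts per gene for all libraries. The submitters' processing notes name STAR, SAMtools and featureCounts, and the study names GENCODE M21 and DESeq2, which its methods use for normalization. Versions of the first 3 and the strand setting of the counting are not given in the sources used here. Of 55542 lines, 92 carry no gene (spike-in names) and were left out, and 0 pairs of libraries held identical values.

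Counts were tested with edgeR 4.0.16 (TMM scaling, filterByExpr with a minimum count of 10 and total of 15, glmQLFit and glmQLFTest, prior count 0.125, two-sided) in R 4.3.3. P-values were adjusted by Benjamini-Hochberg over all genes tested, and a gene was called under 0.05. DESeq2 1.42.0 gave the normalized counts, from size factors over all 57 libraries, and a Wald test as an alternative. limma 3.58.1 is required by edgeR. Tables and plots were made with Python 3.11.15, pandas 2.3.3, numpy 2.4.6 and matplotlib 3.10.9. The scripts were tested on counts simulated with log2 fold changes of 1 or 2 in genes above the median level. For D2 against D0, 15% and 61% of these were called, and 14.6% of calls were false. D6 against D2 in Sox1-FoxA2+ gave 6%, 65% and 13.4%, and D6 Sox1-FoxA2+ against Sox1+FoxA2- gave 1%, 19% and 20%. That pair in D6 progeny gave 11%, 84% and 5%, and progeny against sorted cells at D6 gave 23%, 81% and 6.3%. A gene not called is thus not shown to be unchanged. The false share of 14.6% for D2 against D0 was above the threshold of 0.05, as were those of the other sorted comparisons at 13.4% and 20%. Calls of D2 against D0 with an adjusted p near 0.05 are thus uncertain.

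The 42 genes and the lists of other cycle genes and lineage markers were chosen with earlier results of these data known. Every called member was named where 12 or fewer were called, 12 members could be named with values whether called or not, and of each other list up to 4 called genes with the smallest p were named. Groups came from the labels. Whether equal replicate numbers pair libraries was checked over 5000 genes as the correlation of deviations from group means, and pairs were accepted where every correlation was above 0.1. The numbers paired the libraries of D6 against D2 in Sox1-FoxA2-, the D4 pair, D6 Sox1-FoxA2+ and Sox1+FoxA2+ each against Sox1+FoxA2-, the progeny D4 pair, and D6 progeny of Sox1+FoxA2+ against either other origin, with correlations from 0.112 to 0.562. Alternatives were another scaling, no filter, all 57 libraries in 1 fit, the replicate block, the Wald test, leaving out replicates and, chosen after seeing the data, single gates and leaving out single D0 libraries.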

Additional observations from a re-analysis of the deposited data

How the results depend on the processing

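Of 201 counts of called members recomputed under an alternative, 141 stayed within 1.5 times the reported count and 60 moved. Of 466 recomputed values of called genes none changed sign, 296 were still called and 170 were not, and the cause was not tested. Over all comparisons 38 calls of a member were made, with many genes called in more than 1 comparison, and 4 of these calls were kept under every alternative run: Mki67 at D2 against D0, Cdc6 in D6 progeny of Sox1-FoxA2+ against Sox1+FoxA2- cells, and Ccnd2 and Cenpe in D6 progeny of Sox1+FoxA2+ against Sox1-FoxA2+ cells. Fen1, Cdkn2b and Ccnd1, with libraries at or near 0 in some conditions, were the least precise members, and the part of depth in this was not tested.

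For D2 against D0 (12 called), all 57 libraries in 1 fit gave 5, leaving out a replicate number gave 1 to 12, leaving out D0 replicate 1 gave 5 and replicate 2 gave 7, and single gates gave 6 (Sox1-FoxA2-), 5 (Sox1-FoxA2+), 2 (Sox1+FoxA2-) and 6 (Sox1+FoxA2+). For D6 against D2 (0 called in each gate), no filter gave 1 in Sox1-FoxA2-, the Wald test gave 1 in Sox1+FoxA2-, and in the libraries labelled Sox1+FoxA2+ the fit of all 57 libraries gave 2 and the Wald test 2. In Sox1-FoxA2+ no filter gave 3, the replicate block 1, the Wald test 7, and leaving out a library 0 to 1, with 1 without D6 replicate 3. For D4 Sox1-FoxA2+ against Sox1+FoxA2- (0), no filter gave 1. For the same gates at D6 (0), all 57 libraries gave 1, no filter 1, the replicate block 1 and the Wald test 1, and for D6 Sox1+FoxA2+ against Sox1-FoxA2+ (0) the Wald test gave 2.

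For progeny D4 Sox1-FoxA2+ against Sox1+FoxA2- (1), all 57 libraries gave 0, no filter 2, the replicate block 2, the Wald test 2 and leaving out a library 0 to 1. For that pair at D6 (6), all 57 libraries gave 2, no filter 10 and leaving out a library 3 to 10. For D6 progeny of Sox1+FoxA2+ against Sox1+FoxA2- (0), no filter gave 2, the replicate block 1, the Wald test 1 and leaving out a library 0 to 1, and against Sox1-FoxA2+ (8) all 57 libraries gave 3, no filter 18, the replicate block 17, the Wald test 17 and leaving out a library 2 to 14. For progeny against sorted cells at D4 (3), all 57 libraries gave 1, the Wald test 10, leaving out a replicate number 1 to 2, and the single gates Sox1-FoxA2+ 0, Sox1+FoxA2- 0 and Sox1+FoxA2+ 0. At D6 (8), DESeq2 size factors gave 14, the Wald test 18, leaving out a replicate number 3 to 6, and single gates 0 (Sox1-FoxA2+), 1 (Sox1+FoxA2-) and 3 (Sox1+FoxA2+). There the numbers did not pair the libraries, and the replicate block gave 10. For progeny D6 against D4 in Sox1-FoxA2+ (0), no filter gave 1 and the Wald test 1. In the comparisons not named here for it, the replicate block kept the count within 1.5 times.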

Other observations

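Like the p53 target Cdkn1a, several p53 targets of a list chosen beside the cell cycle genes were higher in progeny than in sorted cells. At D4, 3 of 10 were called, all higher, where 3.49% of all genes were higher: Mdm2 (log2 fold change 0.89), the ubiquitin ligase that degrades p53, Phlda3 (1.43) and Perp (1.90), with a list median of 0.71 against -0.21 over all genes. At D6, 5 of 10 were called, all higher, where 7.04% of all genes were higher, among them Mdm2 (1.88), Zmat3 (0.95), Phlda3 (1.42) and Perp (2.91), and all 10 values were positive with a median of 0.98 against -0.21. The arms also differed in medium, replating and sorting, which cannot be told apart, and the mesenchyme and smooth muscle markers given above moved with them. At D2 against D0 none of the 10 was called.

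Among other regulators of G1 and arrest, Btg2 (1.51) was higher in D6 progeny than in D6 sorted cells. Of other mitotic genes, Ckap2 (0.91) and Gtse1 (0.93) were higher there, while Mybl2 (-1.07) was lower.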
